A study of Mus musculus with 75 samples.

Results

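In mouse skin fibroblasts carrying a hairpin RNA against the transcription factor gene Atf3, 152 genes were lower with each of 2 hairpins than in cells with a non-targeting hairpin. They were selected on these same libraries: genes with a mean of at least 5 CPM (counts normalised to the library's sum of gene counts) in the non-targeting libraries, and a mean log2(CPM + 1) lower by at least 1 with hairpin 5 and with hairpin 6. Of 24984 genes counted, 10416 passed the level, 342 were lower with hairpin 5, 930 with hairpin 6 and 152 with both. By the mirrored thresholds 18 genes were higher with both. Both hairpins were set against the same 3 non-targeting libraries, and the values of these 9 libraries, which chose the genes, are given as a description with no test.

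Atf3 is a basic leucine zipper protein of the ATF/CREB family that is induced by many kinds of stress. As a dimer with itself or with related proteins it binds AP-1 sites and cyclic AMP response elements. Fibroblasts passaged until they stop dividing, a state called replicative senescence, raise Cdkn2a, which encodes the cell cycle inhibitor p16, and change the matrix and secreted proteins they make.

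The study followed untreated C57BL/6 skin fibroblasts, taken from 2-month-old female mice according to its methods, over passages P1, P3, P5 and P7, with 4 RNA libraries a passage, and assayed open chromatin by ATAC-seq in 4 samples at P1 and 3 at each later passage. Lentiviral hairpins were directed in C57BL/6 skin fibroblasts against Atf3 (hairpins 5 and 6), E2f4 (hairpin 1 alone) and Tead1 (hairpins 3 and 4), each experiment with its own non-targeting hairpin and 3 libraries a group. E2f4 was also overexpressed from a vector induced by doxycycline, with 2 libraries against 2 of a control vector. Cells of newborn and of 2-month-old mice served for these experiments, and which of them a library came from is not given in the sources used here. The labels do not say whether replicates were separate cultures or animals, so p-values measure the spread between these libraries, which may be technical.

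The RNA libraries held 9147324 to 27552949 counts in genes. Atf3 was at 3.34, 2.87 and 2.82 CPM in the non-targeting libraries, at 1.49, 2.12 and 0.458 with hairpin 5 and at 1.47, 1.51 and 2.06 with hairpin 6. Every hairpin library was below every non-targeting one, at a level too low for Atf3 to enter the 152 genes. E2f4 was at 20.3 to 21.6 CPM with its hairpin against 59.4 to 61.1, and at 1116 to 1171 when overexpressed against 35.9 to 47.3. Tead1 was at 269 to 285 and 315 to 320 CPM with its hairpins against 509 to 567. The summed level of 16 fibroblast markers was 37071 to 38817 CPM in the Atf3 non-targeting libraries, 23510 to 36014 with hairpin 5 and 14142 to 15388 with hairpin 6, and none of the 16 was at 0 in every library of a group.

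Among the 9 Atf3 libraries, 2 stood apart. Replicate 3 of hairpin 5 correlated across genes with another replicate of its group by as little as r = 0.9622, where pairs of non-targeting libraries lay between 0.9922 and 0.9964, and 15.1% of its reads lay outside any gene, the highest share of the experiment. Without it 83 genes met the thresholds, 79 of them among the 152. Replicate 1 of the non-targeting group had high interferon-stimulated genes. Without it 159 genes met the thresholds, 134 of them among the 152, and none was on the list of 46 interferon-stimulated genes, of which 12 were among the 152. With both libraries left aside 88 genes were chosen, 81 of them among the 152.

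The promoters below are shown for short motifs linked to Atf3 and to pathways named further on: an amino acid response element core (TGATGNAA) in Trib3 and Chac1, an interferon response element core (TTTCNNTTT) in Ifit1 and Ifit3, and an AP-1 site (TGANTCA) in Tnxb and Igfbp2. Each is the RefSeq promoter on GRCm38.p6, 250 bases before to 50 after an annotated start, 5′ to 3′ along the gene, with matches on either strand in capitals.
Trib3: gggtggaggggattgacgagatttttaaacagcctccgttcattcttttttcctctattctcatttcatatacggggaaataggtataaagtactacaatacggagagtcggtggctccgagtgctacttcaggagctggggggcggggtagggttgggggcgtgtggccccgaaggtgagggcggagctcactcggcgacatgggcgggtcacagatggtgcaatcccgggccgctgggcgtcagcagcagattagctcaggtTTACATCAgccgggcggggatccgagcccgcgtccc
Chac1: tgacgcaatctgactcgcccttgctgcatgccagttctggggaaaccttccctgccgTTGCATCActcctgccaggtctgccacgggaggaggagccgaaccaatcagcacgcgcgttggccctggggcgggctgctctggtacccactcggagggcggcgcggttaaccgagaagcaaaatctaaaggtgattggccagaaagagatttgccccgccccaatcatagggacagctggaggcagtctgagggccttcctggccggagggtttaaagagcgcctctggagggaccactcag
Ifit1: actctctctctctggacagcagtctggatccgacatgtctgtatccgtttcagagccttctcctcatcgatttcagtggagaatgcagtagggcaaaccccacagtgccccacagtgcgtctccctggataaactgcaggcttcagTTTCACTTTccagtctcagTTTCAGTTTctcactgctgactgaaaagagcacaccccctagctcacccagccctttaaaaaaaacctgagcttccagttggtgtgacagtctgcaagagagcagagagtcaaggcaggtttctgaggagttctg
Ifit3: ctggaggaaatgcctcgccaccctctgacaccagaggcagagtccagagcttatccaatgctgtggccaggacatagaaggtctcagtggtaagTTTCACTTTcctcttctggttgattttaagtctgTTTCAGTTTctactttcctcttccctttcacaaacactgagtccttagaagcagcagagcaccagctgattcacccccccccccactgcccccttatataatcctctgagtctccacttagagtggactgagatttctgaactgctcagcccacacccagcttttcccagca
Tnxb: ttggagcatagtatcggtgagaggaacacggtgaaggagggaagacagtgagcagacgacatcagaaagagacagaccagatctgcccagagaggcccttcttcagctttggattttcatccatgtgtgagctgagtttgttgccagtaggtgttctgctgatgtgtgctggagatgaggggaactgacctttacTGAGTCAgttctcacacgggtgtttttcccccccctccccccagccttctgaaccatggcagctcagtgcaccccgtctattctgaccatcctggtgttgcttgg
Igfbp2: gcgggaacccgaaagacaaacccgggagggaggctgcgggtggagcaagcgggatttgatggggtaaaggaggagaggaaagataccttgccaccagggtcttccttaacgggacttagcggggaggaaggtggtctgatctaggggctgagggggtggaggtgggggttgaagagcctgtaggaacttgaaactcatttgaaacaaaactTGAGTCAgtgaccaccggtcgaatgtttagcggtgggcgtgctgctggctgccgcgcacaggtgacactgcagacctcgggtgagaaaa
The Trib3 promoter lies at chr2:152344011-152344310 on the minus strand and that of Chac1 at chr2:119350992-119351291 on the plus strand. Those of Ifit1 and Ifit3 lie at chr19:34640639-34640938 on the plus strand and chr19:34583279-34583578 on the plus strand. The promoters of Tnxb and Igfbp2 lie at chr17:34670285-34670584 on the plus strand and chr1:72825137-72825436 on the plus strand. The starts used for Ifit3, Tnxb and Igfbp2 lie inside the gene, downstream of its first base.

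RefSeq promoters were found for 113 of the 152 genes. Counted by gene, the AP-1 site was in a promoter of 15 of the 113 (13.3%) and of 482 of 8401 genes past the level (5.74%), and counted by promoter in 15 of 162 (9.26%) and in 7.81% of all 32851. The cyclic AMP response element TGACGTCA was in 2 of the 113 genes (1.77%) and in 3.79% of genes past the level, and in 1.23% of the 162 promoters and 1.79% of all. The amino acid response element core was in 6 of the 113 (5.31%), namely Chac1, Gbp3, Pck2, Pycr1, Trib3 and Trim46, and in 2.51% of genes past the level, and in 3.70% of the 162 promoters and 3.97% of all. The interferon response element core was in 16 genes (14.2%) and in 9.12% of genes past the level, and in 9.88% of the 162 promoters and 10.6% of all. Both strands were searched, and a match describes letters only.

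Over the 152 genes the difference from the non-targeting mean had a median of -1.21 with hairpin 5 and -1.82 with hairpin 6 on the log2(CPM + 1) scale, against -0.03 and -0.05 over all genes past the level, and 127 were further below with hairpin 6. In 144 genes all non-targeting libraries were above all 6 hairpin libraries, a separation that the rule, applied to these same libraries, favours. The other 8, named after their values were seen, were Ifit1, Ifit3, Ifit3b, Igtp, Irf7, Irgm2, Mx2 and Oas1b, all interferon-stimulated. Neither the 127 nor the 144 was set against a share over all genes past the level. Just inside the threshold were Trim46 and Hcn2, whose smaller falls were -1.002 and -1.002, and just outside were Ahdc1, Xaf1 and Lrrc75a, at -0.994, -0.992 and -0.991.

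Eln, elastin of the elastic fibre, was at 142, 158 and 157 CPM in the non-targeting libraries, at 21.8, 23.6 and 4.70 with hairpin 5 and at 4.24, 4.41 and 6.97 with hairpin 6, differences of -3.38 and -4.65 and the lowest mean of the 2 differences among the 152. All its hairpin libraries were far below the non-targeting ones, and replicate 3 of hairpin 5 was as low as hairpin 6. Col8a2, a short-chain collagen, was at 43.0, 49.3 and 56.7, then 7.49, 10.2 and 6.48, then 0.679, 0.174 and 0.743 CPM in the same order of groups. Mfap4, a microfibril protein, was at 87.7, 87.2 and 91.8, then 32.2, 35.8 and 24.9, then 12.5, 8.0 and 13.3 CPM. In both, hairpin 6 was below hairpin 5 without overlap.

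Tnxb, tenascin X, was at 35.8, 37.5 and 38.4 CPM without a targeting hairpin, 11.1, 11.2 and 5.56 with hairpin 5 and 3.00, 2.38 and 2.69 with hairpin 6. Prelp, a leucine-rich repeat proteoglycan, was at 197, 189 and 180, then 97.9, 104 and 69.3, then 6.96, 10.6 and 8.52 CPM. Loxl1, an elastin cross-linking enzyme and the most abundant of the 152, was at 569, 601 and 619, then 338, 380 and 203, then 231, 213 and 205 CPM. Hairpin 6 was below hairpin 5 without overlap in Tnxb and Prelp, while in Loxl1 replicate 3 of hairpin 5 lay just below the hairpin 6 libraries. Prelp and Loxl1 were not chosen without replicate 3 of hairpin 5, whereas Eln, Col8a2, Mfap4 and Tnxb were. Of the lists, the 22 collagens past the level gave 2 genes (Col8a2, Col18a1) and the 31 other matrix genes gave 3 (Eln, Prelp, Tnxb), with medians over the list of -0.44 and -0.94, and -0.02 and -1.33, for hairpins 5 and 6. The summed level of the other matrix genes was 66842 to 70223 CPM in the non-targeting libraries, 74323 to 75827 with hairpin 5 and 89879 to 93081 with hairpin 6, so the list did not fall as a sum. The matrix metalloproteinase list gave Mmp11 and Adamts15 of 18 past the level. Neither was chosen without replicate 3 of hairpin 5, nor after centring on GC content within each library.

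Several genes lie at imprinted loci, a grouping made after their values were seen. On chromosome 7 (mm10), 7 genes passed the level between 142575530 and 143499334, from H19 to Slc22a18, and 4 of them, H19, Igf2, Cdkn1c and Slc22a18, were among the 152. The stretch was set by H19 and Slc22a18 themselves, so this count is a description. Over all genes past the level, 152 of 10416 were chosen. H19, a long non-coding RNA made from the maternal copy, was at 281, 281 and 315 CPM in the non-targeting libraries, 71.5, 90.2 and 59.2 with hairpin 5 and 26.6, 25.2 and 40.9 with hairpin 6. Igf2, insulin-like growth factor 2, was at 49.5, 47.3 and 51.4, then 22.5, 27.8 and 12.8, then 11.5, 8.35 and 12 CPM. In H19 the hairpin groups did not overlap each other either, and in Igf2 the lowest hairpin 5 library was replicate 3, without which the gene was not chosen.

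Cdkn1c, which encodes the cell cycle inhibitor p57, was at 94.4, 92.3 and 103, then 30.1, 40.5 and 34.5, then 2.66, 3.25 and 3.94 CPM. Dlk1, a surface protein that holds back adipocyte differentiation, on chromosome 12 from 109452485 to 109463336, was at 183, 161 and 175, then 32.4, 33.3 and 27.8, then 14.9, 14.6 and 16.2 CPM. In both the 3 groups were apart from each other, with hairpin 6 lowest. Slc22a18, a transporter, was low throughout, at 7.57, 7.66 and 10.2, then 4.96, 4.08 and 2.18, then 1.08, 1.28 and 0.915 CPM. Of the 4 genes on chromosome 7, Igf2 and Slc22a18 were not chosen without replicate 3 of hairpin 5, and Cdkn1c and Slc22a18 were not chosen after centring on GC content.

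Of 22 integrated stress response targets past the level, 3 were among the 152, and the medians over the 22 were -0.55 with hairpin 5 and -0.92 with hairpin 6. Trib3, a pseudokinase induced in this response, was at 53.9, 55.5 and 60.3, then 23.6, 22.8 and 14.6, then 10.6, 8.87 and 9.32 CPM. Chac1, a glutathione-degrading enzyme, was at 30.3, 35.9 and 31.2, then 17.6, 18.5 and 7.85, then 8.94, 7.19 and 8.86 CPM, and the third gene was Gdf15, a stress-induced secreted factor. Atf5, a relative of Atf3 and the only gene of the 20 AP-1 and ATF/CREB factors past the level that was chosen, was at 315, 357 and 351, then 199, 218 and 51.9, then 126, 115 and 106 CPM. Hairpin 5 replicate 3 was the lowest library of Chac1's hairpin 5 group and of all 9 for Atf5, and neither gene was chosen without it. Gdf15 was not chosen without it either, and none of Trib3, Chac1 and Gdf15 was chosen after centring on GC content. Atf5 exons overlap those of Nup62, and reads could not be told apart there. No p53 target, S phase or G2/M gene, inflammatory gene, chemokine, complement gene, smooth muscle contractile gene or gene of cholesterol and fatty acid synthesis on the lists was among the 152.

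The 152 also held signalling genes. Tril, a Toll-like receptor accessory protein, was at 22.5, 22.0 and 23.9, then 6.11, 6.19 and 3.67, then 0.396, 0.232 and 0.629 CPM. Cmklr1, a chemerin receptor, was at 38.8, 42.9 and 42.1, then 18.7, 20.9 and 17.5, then 2.04, 2.67 and 2.63 CPM. Both fell furthest with hairpin 6. Ssc5d, a scavenger receptor family protein, Arhgap20, a GTPase-activating protein, and Tbxa2r, the thromboxane receptor, differed by -1.5, -1.64 and -1.45 with hairpin 5 and by -3.58, -3.23 and -3.12 with hairpin 6. The list of growth factor pathways gave Nog, Bmp6 and Wnt2 of 27 past the level, and the pericyte markers gave Cspg4 and Ndufa4l2 of 5. Of the genes named here, Tbxa2r, Nog, Wnt2 and Cspg4 were not chosen without replicate 3 of hairpin 5. After centring on GC content Cmklr1, Ssc5d, Tbxa2r, Nog, Bmp6, Cspg4 and Ndufa4l2 were not chosen. Tril and Arhgap20 were chosen both times. The summed pericyte list was 340 to 380 CPM in the non-targeting libraries, 133 to 222 with hairpin 5 and 412 to 436 with hairpin 6, and its part in these values was not tested. The smooth muscle contractile list summed to 8081 to 8439 CPM in the non-targeting libraries, 6988 to 7925 with hairpin 5 and 13744 to 14304 with hairpin 6. The skeletal muscle list summed to 38.9 to 41.1, then 16.3 to 19.6, then 196 to 214 CPM, and the adipocyte list to 137 to 172, then 190 to 216, then 41.4 to 60.2 CPM. At a mean of 1 CPM or more were 2, 2 and 3 of the 15 skeletal muscle genes and, in each group, 3 of the 11 adipocyte genes. Those sums thus rest on few genes. The sums of these lists differed between hairpin 6 and the other groups, and their part was not tested. Cdkn2a, not among the 152, was at 70.6, 78.7 and 76.7, then 51.9, 51.4 and 32.4, then 42.6, 39.7 and 28.4 CPM.

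**Figure D1:**
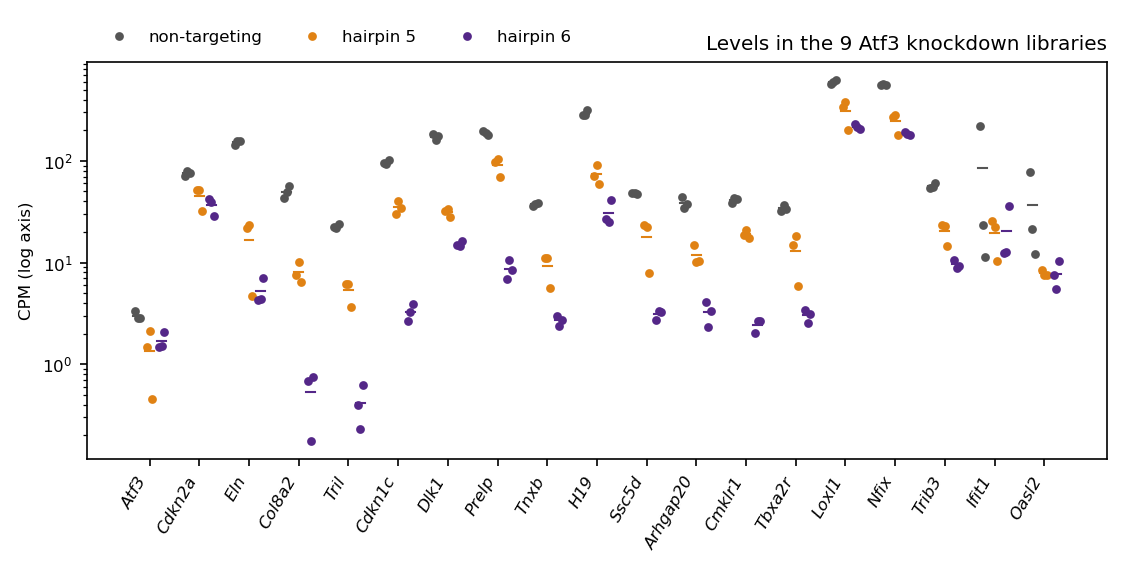
CPM on a log axis of Atf3, Cdkn2a and 17 of the 152 genes in the 9 Atf3 knockdown libraries. Points are libraries and short lines the means of 3, and in each gene but Ifit1 every hairpin library lies below every non-targeting one.

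The 152 genes were rich in G and C, which the rule did not use. Their exonic GC content had a median of 57.1%, where the quartiles over all genes past the level were 45.4% and 54.7%. With the genes past the level cut into 5 equal bins by GC content, 98 of the 152 lay in the highest bin, 4.71% of its genes, against 3 in the lowest, 0.144%. The median exonic length was 3484 bases against 3863. The libraries carried a GC trend of their own, the median deviation of the highest bin minus that of the lowest, of 0.20, 0.45 and 0.41 log2 in the non-targeting libraries, -0.25, -0.17 and -1.05 with hairpin 5 and 0.32, 0.15 and -0.02 with hairpin 6. Replicate 3 of hairpin 5 was far from all others. After centring on GC content within each library 58 genes met the thresholds, 48 of them among the 152. Eln, Col8a2, Mfap4, Tnxb, H19, Igf2, Dlk1, Tril, Cilp, Cd34, Pgm5, Arhgap20 and Tmem151a were among the 48. Cdkn1c, Prelp, Loxl1, Nfix, Trib3, Chac1, Atf5, Igfbp2, Cemip and Cmklr1 were not.

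**Figure D2:**
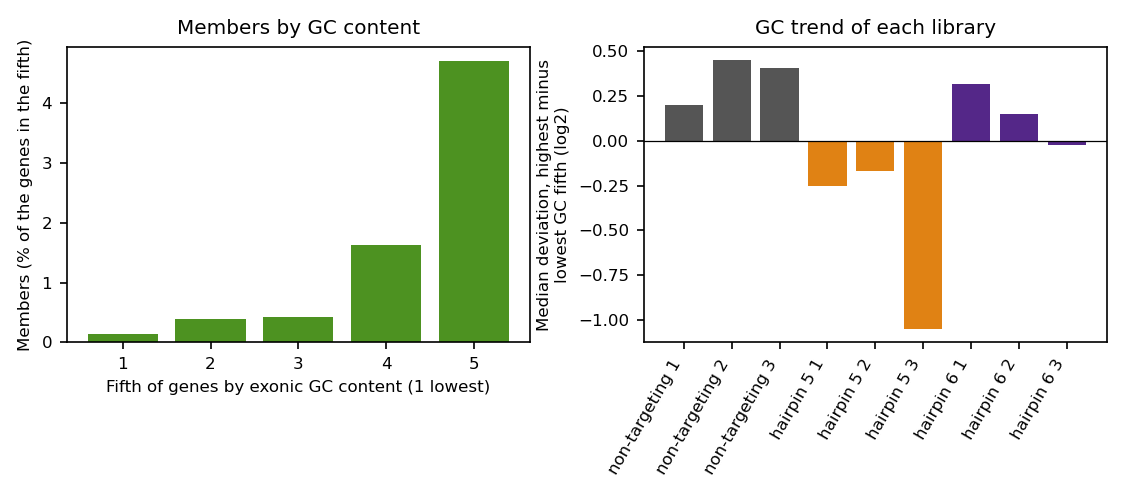
Left, the 152 genes as a percentage of the genes in each of 5 bins of exonic GC content; right, the GC trend of each Atf3 library as the median deviation in the highest minus the lowest bin, in log2. The share goes from 0.144% to 4.71%, and hairpin 5 replicate 3 has a trend of -1.05.

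Over the passages, whose libraries had no part in choosing the genes, the 152 moved both ways. Of 150 tested, 23 (15.3%) were higher at P7 than at P1 and 42 (28.0%) lower, by edgeR's quasi-likelihood test at a Benjamini-Hochberg adjusted p under 0.05 and over 2-fold, against 8.10% and 13.3% of all 13442 genes tested. Their median log2 fold change was -0.10 with quartiles of -1.05 and 0.71, against -0.01 with quartiles of -0.51 and 0.43 over all genes. From P1 to P3, 12 were higher and 22 lower (background 2.40% and 6.58%). From P3 to P5 the counts were 9 and 4 (0.841% and 3.05%), and from P5 to P7 they were 3 and 15 (1.19% and 2.28%). In all, 73 of the 150 (48.7%) were called in a passage comparison, against 23.3% of all genes tested. Of the 83 genes chosen without hairpin 5 replicate 3, 11 (13.3%) were higher at P7 than at P1 and 29 (34.9%) lower.

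Markers of other cell types were high at P1. The summed keratinocyte list was 106 to 606 CPM at P1 and 7.03 to 10.8 at P3, the macrophage list 510 to 763 and 69.3 to 93.7, and the skeletal muscle list 215 to 326 and 61.2 to 67.0. Their part in the changes from P1 was not tested, and in bulk libraries fewer cells of a type and less RNA per cell cannot be told apart. With P3 in place of P1, 12 genes were higher at P7 and 20 lower, 9 and 19 of them also called against P1, where 4.44% and 7.41% of all genes were called.

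H19 and Igf2 fell at every step up to P5. H19 was at 61.1, 57.1, 39.2 and 71.2 CPM at P1, 7.32, 9.16, 7.28 and 9.10 at P3, 1.21, 2.84, 1.92 and 2.51 at P5 and 1.15, 0.356, 0.649 and 0.984 at P7, a log2 fold change from P1 to P7 of -5.96 ± 0.27 (SE; adjusted p = 1.46e-12). Igf2 was at 34.9, 39.3, 27.4 and 51.0 CPM at P1, 6.60, 4.0, 3.70 and 6.64 at P3, 1.40, 0.948, 1.35 and 1.87 at P5 and 1.15, 1.28, 1.73 and 1.1 at P7, -4.63 ± 0.26 (adjusted p = 1.73e-11). No P1 library of either gene overlapped a later one, and a lack of overlap was a condition for naming them here. Cdkn1c, their neighbour, was at 2.53, 2.43, 1.99 and 3.97 CPM at P1 and 1.66, 2.85, 2.31 and 1.19 at P7, -0.24 ± 0.35 (adjusted p = 0.565), with overlap. Slc22a18 rose instead, from 0.372, 0.368, 0.148 and 0.673 to 2.67, 3.06, 1.87 and 1.90 CPM, 2.77 ± 0.43 (adjusted p = 1.57e-05). The 4 genes of the chromosome 7 stretch thus went different ways.

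Matrix and surface genes were among those that fell. Cilp, a cartilage intermediate layer protein, was at 44.8, 44.1, 38.6 and 43.9 CPM at P1, 15.7, 16.3, 9.68 and 5.78 at P3, 4.58, 5.22, 4.55 and 2.77 at P5 and 1.88, 0.499, 1.30 and 0.984 at P7, -4.99 ± 0.32 (adjusted p = 9.84e-11). Cd34, a surface sialomucin, was at 12.5, 15.7, 13.3 and 13.1 CPM at P1 and 1.76, 2.48, 1.62 and 1.95 at P3, -2.68 ± 0.23, with no call after P3. Eln was at 31.4, 26.2, 37.4 and 24 CPM at P1, 12.3, 10.3, 6.63 and 13.5 at P3, 4.39, 6.98, 10.9 and 24.1 at P5 and 4.26, 1.78, 2.24 and 6.89 at P7, -2.76 ± 0.43 (adjusted p = 1.49e-05). Its P5 libraries spread widely and overlapped both P3 and P7. Mfap4 fell late, from 7.63, 9.01, 10.6 and 6.38 at P5 to 2.52, 2.35, 2.81 and 0.984 CPM at P7, -1.89 ± 0.31, after a rise at P3. Oasl2, an interferon-stimulated gene, fell between the same passages from 13.9, 13.4, 6.34 and 18.5 to 4.04, 2.85, 2.02 and 3.37 CPM, -2.02 ± 0.28. Tril, Adamts15 and Cspg4 were also lower at P7 than at P1, by -4.31 ± 0.68, -3.15 ± 0.33 and -1.67 ± 0.24.

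Prelp and Cemip, a protein of hyaluronan breakdown, were abundant and rose. Prelp was at 83.1, 103, 57.7 and 107 CPM at P1, 321, 321, 297 and 459 at P3, 455, 529, 447 and 778 at P5 and 578, 630, 692 and 721 at P7, 3.11 ± 0.20 (adjusted p = 1.42e-10). Cemip was at 36.8, 57.3, 25 and 47.3 CPM at P1, 110, 146, 92.2 and 95.1 at P3, 124, 187, 140 and 116 at P5 and 224, 340, 365 and 264 at P7, 3.05 ± 0.23. No P7 library of either was as low as a P1 library, which was a condition for naming Prelp here. Igfbp2, which binds insulin-like growth factors, went from 27.3, 44.6, 20.7 and 56.7 at P1 to 236, 287, 223 and 301 CPM at P7, 3.02 ± 0.39. Ndufa4l2, a mitochondrial protein whose exons overlap Shmt2, went from 2.01, 1.76, 2.44 and 1.14 to 39.9, 23.5, 23.9 and 11.6 CPM, 3.96 ± 0.36. Tmem151a, a membrane protein, was at 1.64, 2.35, 1.55 and 2.76 CPM at P1 and 15.7, 17.0, 16.5 and 16.3 at P7 and was called higher at each step, by 1.09 ± 0.22, 1.08 ± 0.19 and 1.01 ± 0.18.

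Loxl1, the transcription factor Nfix and the parathymosin gene Ptms were at 591 to 667, 245 to 281 and 263 to 376 CPM at P7, with log2 fold changes from P1 of -0.14 ± 0.11, 0.09 ± 0.09 and -0.11 ± 0.15, none called. Atf5 and Mmp11 differed by 0.85 ± 0.16 and 0.90 ± 0.13 (adjusted p = 9.23e-05 and 9.72e-06), under 2-fold. Trib3 was higher at P3 than at P1 by 1.16 ± 0.14. Atf3 itself was at 8.79, 8.53, 8.27 and 8.08 CPM at P1 and 9.95, 11.8, 8.87 and 25 at P7, 0.93 ± 0.24 (adjusted p = 0.00221), under 2-fold and with replicate 4 of P7 far above the other 3. Cdkn2a rose from 7.74, 8.90, 7.83 and 10.5 to 254, 207, 168 and 213 CPM, 4.79 ± 0.26.

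**Figure D3:**
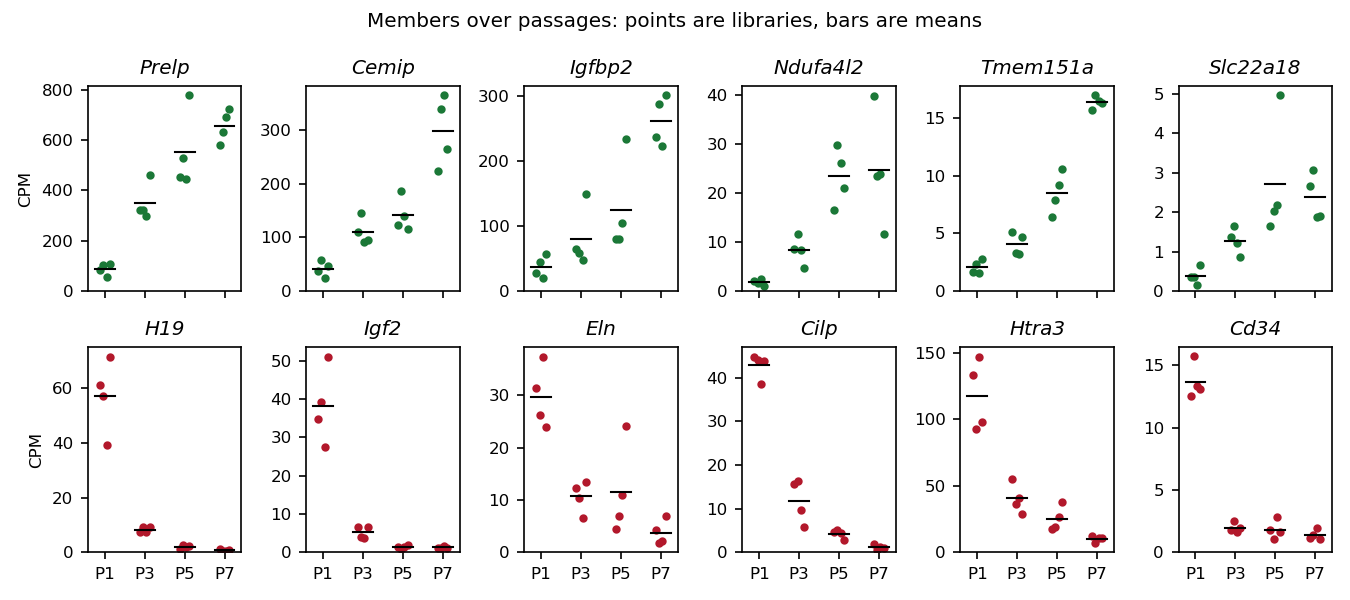
CPM by passage of 6 genes called higher and 6 called lower at P7 than at P1. Points are the 4 libraries and bars their mean; Prelp, Cemip and Igfbp2 end above all P1 libraries, and H19, Igf2 and Cilp end below 2 CPM.

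A peak within 1000 bases of a start was called for 95.7% ± 0.658 (SD, n = 4) of them at P1, 92.5% ± 1.00 (SD, n = 3) at P3, 95.2% ± 0.380 (SD, n = 3) at P5 and 94.1% ± 1.14 (SD, n = 3) at P7, against 96.0%, 95.3%, 95.9% and 95.7% of all genes tested. In all 13 samples 131 of the 152 (86.2%) had one, against 92.9% of 13425 genes. With only peaks of a -log10 q of 5 or more the mean share went from 92.8% at P1 to 88.4% at P7, against 94.8% and 94.2% of all genes, and with a window of 500 bases from 93.6% to 88.8%, against 95.1% and 94.5%. Peaks were called in each sample alone. A sample held 168982 to 186562 peaks at P1, 142384 to 155681 at P3, 182402 to 207965 at P5 and 200376 to 231558 at P7. The part of these totals in the shares was not tested. Mfap4 had a peak in 4 of 4 samples at P1, 3 of 3 at P3, 1 of 3 at P5 and none at P7, and was the only one of the 152 with a peak in every P1 and no P7 sample. The -log10 q of the Mfap4 peaks was 2.59 to 6.87 at P1 and 3.47 to 8.82 at P3. H19 had a peak in 2 of 4 samples at P1 (-log10 q of 2.22 to 4.86), none at P3 and 1 of 3 at P5 and at P7. These values are low, and presence or absence at such strength is uncertain. Prx and Tmem151a had none in any sample.

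With E2f4, a transcription factor of cell cycle genes, overexpressed, 29 of 145 genes tested were higher and 11 lower than with the vector (background 7.69% and 10.4%). H19 was at 43.4 and 59.2 CPM with the vector and 916 and 947 with E2f4, a log2 fold change of 4.20 ± 0.16 (adjusted p = 1.01e-07, edgeR). Igf2 was at 19.5 and 22.4 and 71.0 and 86.9 CPM, 1.93 ± 0.14. Both were thus lower at P7 than at P1 and higher with E2f4 overexpressed. Cmklr1 was at 7.78 and 13.6 and 42.8 and 48.4 CPM, 2.12 ± 0.22. Tnxb fell from 15.3 and 18.4 to 2.87 and 3.79 CPM, -2.34 ± 0.20 (adjusted p = 1.23e-05), and Wnt2, a secreted Wnt ligand, from 4.29 and 4.30 to 1.31 and 1.28 CPM, -1.71 ± 0.26. Chac1 and Cemip were lower by -1.57 ± 0.20 and -1.33 ± 0.10. In none of these genes did the groups overlap, which was a condition for naming H19, Cmklr1, Tnxb and Wnt2 here. With 2 libraries a group, all 29 higher and 11 lower genes were free of overlap. All genes moved with GC content in this comparison, with a median of -0.62 in the lowest GC bin and 0.54 in the highest, and with an offset for GC content in each library 9 of the 152 were called higher and 22 lower, against 5.06% and 6.74% of all genes.

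With the E2f4 hairpin 17 of 148 genes were higher and 2 lower (background 1.46% and 0.211%). All 12 genes of the interferon list among the 152 were higher, as were 35 of 41 tested on the whole list. Ifit1, which binds viral RNA, was at 2.43, 3.06 and 4.25 CPM in the controls and 30.6, 59.7 and 23.0 with the hairpin, 3.54 ± 0.33 (adjusted p = 7.24e-06, edgeR). Oasl2 was at 2.82, 2.67 and 5.79 and 24.1, 46.7 and 27.7 CPM, 3.12 ± 0.28. Neither gene's groups overlapped, which was a condition for naming them here. Col8a2 rose as well, from 3.02, 1.98 and 1.83 to 6.11, 6.45 and 8.80 CPM. Cd34 fell from 4.77, 5.93 and 4.92 to 1.53, 1.20 and 1.96 CPM, -1.72 ± 0.28, and Pgm5, a protein of cell junctions, by -1.03 ± 0.34 (adjusted p = 0.0465). Of the 159 genes chosen without non-targeting replicate 1 of the Atf3 experiment, 155 were tested and 4 (2.58%) were higher. Leaving out any of E2f4 hairpin replicates 1 and 2 and control replicates 1 and 2 left 1 lower call.

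With the Tead1 hairpins 3 and 4, which share their non-targeting libraries, 29 and 17 of 152 genes were higher (background 1.99% and 1.01%) and 3 and 1 lower (0.722% and 0.523%). Tead1 is a DNA-binding partner of the Hippo pathway effectors YAP and TAZ. All 12 interferon list genes were higher with hairpin 3 and 3 with hairpin 4, and 32 and 6 of 41 over the whole list. Mx2, of a family of antiviral GTPases, is annotated as a transcribed pseudogene. It was at 0, 0.114 and 0.103 CPM in the controls, at the lower limit of detection. With hairpin 3 it was at 0.857, 0.439 and 1.96 CPM and with hairpin 4 at 0.362, 0.553 and 0.539. Oasl2 was at 0.630, 1.08 and 0.514, then 9.66, 4.88 and 9.36, then 1.09, 1.72 and 3.77 CPM, and Slfn5, another interferon-induced gene, at 0.802, 0.796 and 0.514, then 4.40, 2.63 and 3.92, then 1.45, 3.32 and 3.61 CPM. All libraries with a hairpin were above the controls in these 3 genes, which the condition of no overlap for naming them favours. Of the 159 genes chosen without Atf3 non-targeting replicate 1, 17 (10.7%) were higher with hairpin 3.

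Outside the interferon list, Col8a2 was at 3.04, 2.50 and 2.78 CPM in the controls, 13.1, 16.2 and 16.9 with hairpin 3 and 10.2, 9.96 and 9.86 with hairpin 4, 2.47 ± 0.14 and 1.84 ± 0.15 (adjusted p = 1.09e-14 and 3.39e-11, edgeR). Bmp6, a bone morphogenetic protein, and Arhgap20 were higher with both, by 1.54 ± 0.19 and 1.16 ± 0.20, and by 1.32 ± 0.15 and 1.21 ± 0.15. Pamr1, a peptidase-domain protein, was lower with both, at 6.64, 10.7 and 6.53 CPM in the controls, 3.03, 1.97 and 4.24 and 2.48, 4.59 and 3.29, by -1.37 ± 0.23 and -1.22 ± 0.22. Without control replicate 2, its call with hairpin 4 was lost and 0 genes were lower there.

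**Figure D4:**
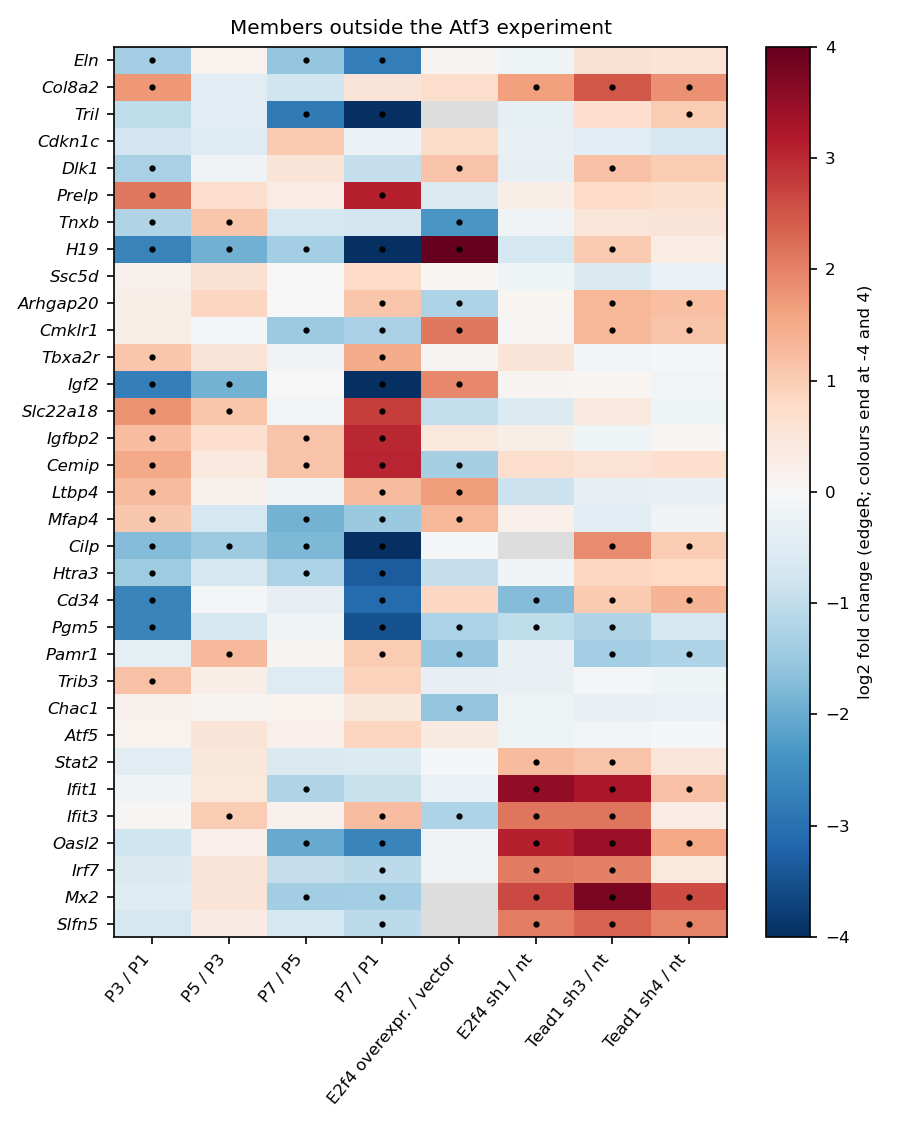
Log2 fold change (edgeR) of 33 of the 152 genes in the 8 comparisons outside the Atf3 experiment, where a dot marks an adjusted p under 0.05 and over 2-fold. H19 is lower over passages and higher with E2f4 overexpressed, and the 7 interferon-induced genes at the foot are higher with the E2f4 hairpin and with Tead1 hairpin 3.

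The place of the 12 interferon list genes among the 152 rested on 1 library. Ifit1 was at 218, 23.4 and 11.4 CPM in the Atf3 non-targeting libraries, 25.4, 22.5 and 10.3 with hairpin 5 and 12.3, 12.6 and 36.0 with hairpin 6. Stat2, a signal transducer of interferon receptors, was at 168, 57.7 and 43.7, then 37.2, 42.8 and 30.5, then 19.9, 20.5 and 42.5 CPM. Replicate 1 of the non-targeting group was the highest library of both, and for Ifit1 the other 2 lay among the hairpin libraries. Ifit3 was at 132, 13.3 and 10.7, then 11.6, 13.6 and 9.68, then 5.66, 4.70 and 10.8 CPM. Reads of sequence that Ifit3 shares with its close copy Ifit3b could not be told apart. The list of 46 summed to 523 to 2211 CPM, then 427 to 536, then 456 to 696. Over the passages it summed to 677 to 880 CPM at P1 and 404 to 463 at P7. Of 44 tested, 25 were lower and 1 higher at P7 than at P1, against 13.3% and 8.10% of all genes. The part of other cell types at P1 was not tested.

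**Figure D5:**
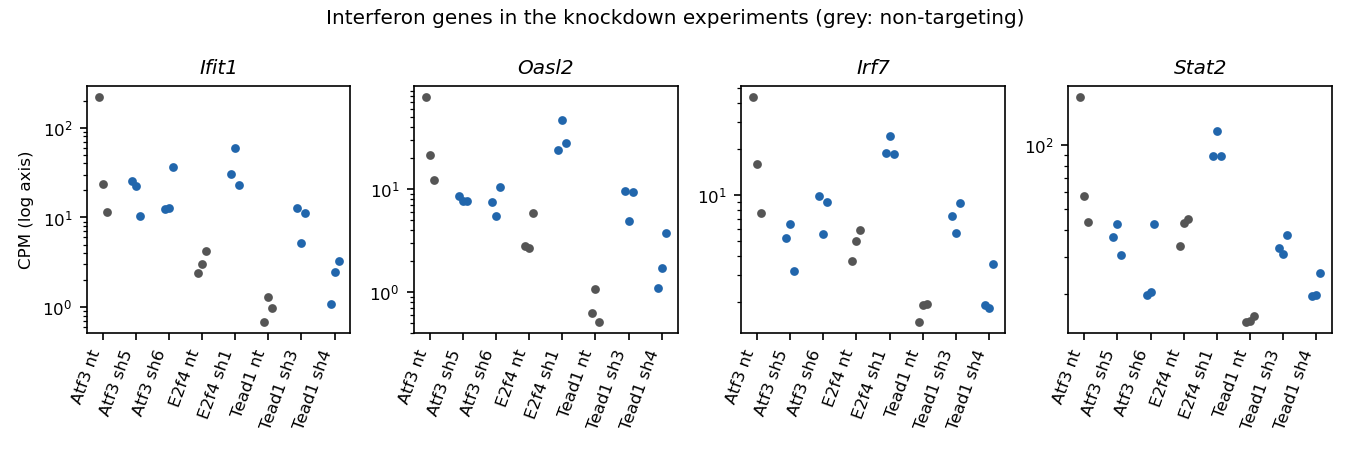
CPM on a log axis of 4 interferon-stimulated genes in the 3 knockdown experiments, with non-targeting libraries in grey and hairpin libraries in blue, 3 a group. Atf3 non-targeting replicate 1 is the highest of its experiment, and libraries with E2f4 hairpin 1 and Tead1 hairpin 3 lie above their controls.

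Set beside the 11 groups outside the Atf3 experiment, which were made separately, the Atf3 non-targeting mean was above all 3 other control means in 98 of the 152 genes (64.5%, against 28.5% of genes past the level) and above all 11 group means in 54 (35.5%, against 11.5%). Both hairpin means were below all 11 in 44 genes (28.9%, against 3.90%). The rule used the Atf3 levels, so these shares are a description. The cells were not alike: the study describes those of the Atf3 knockdown and the E2f4 overexpression as pre-senescent and those of the E2f4 knockdown as proliferating, and the part of passage in these levels was not tested. Cdkn1c was at 92.3 to 103 CPM in the Atf3 non-targeting libraries, 12.3, 15.6 and 14.3 in those of E2f4, 8.42, 6.25 and 7.66 in those of Tead1 and 4.15 and 4.99 with the vector. Mfap4 was at 87.2 to 91.8, then 12.5, 13.2 and 8.30, then 9.79, 14.4 and 10.3, then 4.73 and 5.97 CPM in the same order. In both genes the Atf3 controls were far above the other controls, and in Cdkn1c the hairpin 6 libraries were below all of these.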

How the data were processed

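RNA of 44 libraries and open chromatin of 13 samples were analysed. The authors deposited raw counts per gene, made per the submitters' notes and the methods with Trimmomatic 0.39, HISAT2 2.2.1 (mm10) and HTSeq 0.12.4 without strand. The authors also deposited ATAC-seq peaks (Bowtie2 2.3.5.1, MACS2), called per sample, with a fold enrichment (ratio), a -log10 p-value and a -log10 q-value; only positions and -log10 q were used. Rows for reads outside genes (5.64% to 15.1% where listed) were left out.

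The genes and lists were chosen with earlier results of these data known. Each experiment was fitted with edgeR 4.0.16 (TMM, filterByExpr, quasi-likelihood test, Benjamini-Hochberg over all genes tested), checked on simulated data. The median CPM change of all genes from P1 to P7 was -0.20 log2, which TMM removes. RefSeq names matched 24898 of 24984 genes. Exons of 48 of the 152 genes overlap another gene. No replicate pair of 50 was alike within sampling noise (chi-square per degree of freedom 2.75 to 63.7). Counts limit the precision of genes near 1 CPM. Alternatives included DESeq2 1.42.0, other filters and scalings and leaving out each library; GC offsets, P3 in place of P1 and genes chosen on fewer libraries were added after seeing the data.

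Named genes were Atf3 and Cdkn2a; the 12 genes of 20 CPM or more with the lowest mean difference; per comparison and direction the 3 (passages) or 2 called genes with the largest fold change and no overlap; up to 5 per list; the 3 nearest the threshold on each side; and the 6 most abundant. Prx, Igtp, Irf7, Oas1b, Pck2 and Pycr1 were named after their values were seen. The values of 1 gene that this rule names are not reported here.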

Additional observations from a re-analysis of the deposited data

Results flagged for a closer look

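In groups of 4 libraries 9 of 197 sets of values held a highest or lowest library far from the rest by Dixon's test, where chance gives about 1 in 20 (5%). At P3, replicate 4 was high for Prelp (459 CPM against 297 to 321) and Igfbp2 (149 against 48.4 to 64.3). At P5, replicate 4 was high for Igfbp2 (233 against 80.5 to 105), Slc22a18 (4.96 against 1.65 to 2.18) and Cspg4 (109 against 69.2 to 71.4). At P7, replicate 4 was high for Pgm5 (1.62 against 0.649 to 0.721). At P1, replicate 3 was low for Cilp (38.6 CPM against 43.9 to 44.8) and high for Trim46 (22.3 against 17.6 to 17.8). In ATAC-seq, replicate 3 of P1 had a promoter peak for 94.7% of the 152 genes against 96.1% in the other 3.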

How the results depend on the processing

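The number of genes chosen went from 152 to 83 without hairpin 5 replicate 3, to 88 with Atf3 non-targeting replicate 1 also left aside and to 58 after centring on GC content, and lay between 83 and 210 when 1 Atf3 library was left out. The 83 genes chosen without hairpin 5 replicate 3 are a smaller set, so shares of those tested are given with the counts. They gave 6 higher at P3 than P1 (7.23%), 1 at P7 than P5 (1.20%) and 11 at P7 than P1 (13.3%). With E2f4 overexpressed 15 were higher (19.7%) and 6 lower (7.89%), and with the E2f4 hairpin 9 were higher (11.2%). Among the 152, the passage counts were 12, 3 and 23 (15.3%) of 150 tested. With E2f4 overexpressed 29 of 145 were higher and 11 (7.59%) lower, and with its hairpin 17 of 148 (11.5%) were higher. In these comparisons the shares changed less than the counts, but not in all others. With Tead1 hairpin 4 the count of higher genes was 17 in both sets, and the share went from 11.2% to 20.5%. With Tead1 hairpin 3 the count went from 29 to 23 and the share from 19.1% to 27.7%. For lower at P3 than P1 they went from 22 to 18 and from 14.7% to 21.7%. The 159 chosen without non-targeting replicate 1 gave 4 higher with the E2f4 hairpin, 17 higher with Tead1 hairpin 3 and 0 lower with hairpin 4. GC offsets gave 9 higher and 22 lower with E2f4 overexpressed, and P3 in place of P1 gave 12 higher and 20 lower at P7. DESeq2 gave 1 lower with the E2f4 hairpin, as did the fit with a replicate block. Same-numbered samples correlated between -0.26 and 0.27, not over 0.1 in every pair of any comparison with 3 or more pairs, so the numbers were not taken as a pairing. The same number was the best match for every replicate in P3 against P1, P7 against P1 and the E2f4 overexpression. In the last, with 2 libraries a group, the match of 1 replicate fixes that of the other. The same number was also the best match with the E2f4 hairpin and with Tead1 hairpin 4, so a weak pairing remains possible. The replicate block left the other 15 of 16 counts within 1.5 times. So did RLE size factors and no filter in all 16. With 1 library left out, counts lay between 5 and 9 for higher at P5 than P3 (5 without P5 replicate 4), 1 and 5 for higher at P7 than P5 (1 without P5 replicate 1, P5 replicate 2 or P7 replicate 2, and 5 without P5 replicate 4), 1 and 3 for lower with the E2f4 hairpin, and 0 and 1 for lower with Tead1 hairpin 4. They lay between 17 and 25 and between 38 and 43 for higher and lower at P7 than P1, and between 22 and 41 for higher with E2f4 overexpressed. The share of promoters with a peak, P7 minus P1, was -1.64 percentage points (-1.97 to -0.987 with 1 sample left out), -4.39 with only peaks of a -log10 q of 5 or more and -4.77 with a 500-base window, where all genes gave -0.290, -0.662 and -0.587. The cause of these changes was not tested.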

Other observations

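In the other experiments Atf3 was at 2.78 and 3.15 CPM with the control vector and 1.63 and 2.13 with E2f4 overexpressed, -0.65 ± 0.28 (adjusted p = 0.0683, edgeR), at 3.31, 2.96 and 2.61 CPM in the E2f4 knockdown controls and 1.82, 1.86 and 2.17 with the hairpin, -0.60 ± 0.29 (adjusted p = 0.182), and at 3.78, 4.09 and 4.27 CPM in the Tead1 controls, 2.97, 2.25 and 2.39 with hairpin 3 and 2.74, 2.49 and 2.59 with hairpin 4, -0.68 ± 0.20 and -0.64 ± 0.20, none of them past 2-fold. By chromosome, the 152 genes were 24 of 766 genes past the level on chromosome 7 (3.13%) and 0 of 348 on X. Over all chromosomes they were 152 of 10416, and these counts are a description.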
